A study of Mus musculus with 24 samples.

Results

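Primary mouse hepatocytes carrying a control hairpin were exposed for 4 h to glucagon or to insulin, and gene expression under the 2 hormones was compared over all genes of the array. The comparison took the 3 arrays titled with the hairpin shlacZ, glucagon (GLG) and DMSO against the 3 arrays titled with shlacZ, insulin and DMSO, paired by experiment number. These were 6 of the 24 arrays of the series, which comprised 8 groups of 3. It was made over 22180 genes, each given by a probe set that the platform annotation ties to a single symbol, out of 41345 probe sets.

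Hepatocytes came from male C57Bl6J mice and were infected with the adenovirus AdshlacZ at a multiplicity of infection of 5. They were kept in low-glucose medium with albumin and 100 nM dexamethasone. One group received 1 nM insulin and the other 100 nM glucagon, and both received DMSO, the vehicle of the FXR agonist GW4064 given to other groups. Both groups therefore shared the virus, the glucocorticoid and the vehicle. Each experiment used hepatocytes pooled from 3 mice, and technical replicates were pooled before hybridisation, so the 3 experiments are the replicates. The array was the Affymetrix MoGene 2.0 ST, hybridised with biotinylated DNA made from 300 ng of total RNA. The labels do not say whether the glucagon wells also held insulin. No group of the series lacked both hormones, so a rise under glucagon and a fall under insulin cannot be told apart, and nor can fewer cells of a type and less RNA per cell. Below, a gene "rose" or "fell" where its level was higher or lower under glucagon than under insulin at a Benjamini-Hochberg adjusted p under 0.05 in limma.

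Glucagon is the pancreatic hormone of fasting. It binds a G protein-coupled receptor on hepatocytes, raises cyclic AMP and activates protein kinase A, which phosphorylates the transcription factor CREB and releases its CRTC coactivators, and thereby switches on gluconeogenesis and amino acid breakdown. Insulin is the hormone of feeding, and its receptor acts through IRS proteins, PI3-kinase and AKT, which keeps FOXO transcription factors out of the nucleus, and through the MAP kinase cascade, which switches on immediate-early genes such as Egr1.

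The cells carried the hepatocyte genes of their label. Albumin (Alb) stood at 13.08, 13.02 and 12.89 under insulin and 13.14, 13.08 and 13.10 under glucagon on the log2 scale, close to the highest value of the table, 13.5. Of 40 tested markers of macrophages, stellate cells, endothelium, cholangiocytes and lymphocytes, 34 lay below a log2 level of 5 in both groups, where the median of all probe sets was 3.25. In limma none of the 40 was called, with or without the experiment term, and 6 had an unadjusted p under 0.05, as did 5153 of all 22180 genes. Of the defining markers, Adgre1 and Clec4f of Kupffer cells averaged 2.59 to 2.52 and 2.96 to 3.06 from insulin to glucagon, Des of stellate cells 2.92 to 3.00, Epcam of cholangiocytes 3.41 to 3.22 and Pecam1 of endothelium 5.44 to 5.44. Brighter members, at 5 or above in a group, were 1 macrophage marker (Cd68, given below), 1 stellate marker and 3 endothelial markers. With only genes at that level fitted, none of these was called. The first 2 differed by 0.23 and 0.09, and the endothelial median was -0.005. The cholangiocyte marker Sox9 was at 7.74, 7.61 and 7.36 under insulin and 5.65, 6.25 and 7.56 under glucagon, a difference of -1.09 (adjusted p = 0.076), and was called lower with only genes at 5 or above. The summed level of the 6 cholangiocyte markers lay at 22.8 to 24.1 on the insulin arrays and 21.5 to 22.8 on the glucagon arrays, without overlap before rounding, and without experiment 3, 2 of the 6 fell. Its part in the results was not tested. The sums of the other 4 lists overlapped. Dropping a single array could give 1 rise among the 9 endothelial markers. This held for insulin in experiment 3, and for glucagon in experiments 1 and 2 taken singly. Array medians of all 24 arrays lay between 3.21 and 3.28 over all probe sets, and arrays of 1 group correlated at 0.986 or above over the 22180 genes tested. In experiments 1, 2 and 3 the medians were 3.23, 3.21 and 3.21 under insulin and 3.26, 3.28 and 3.26 under glucagon. Each compared glucagon array thus had a higher median than every compared insulin array.

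Glucagon and insulin separated 2481 genes, 11.2% of the 22180 tested, at adjusted p under 0.05. Of these, 1033 rose (4.66%) and 1448 fell (6.53%). The difference exceeded 1.5-fold for 917 genes (4.13%), of which 394 rose and 523 fell. It exceeded 2-fold for 147 genes that rose and 130 that fell, and 4-fold for 36 that rose and 15 that fell, so the rises reached further than the falls while the falls were more numerous. Among the 2481 genes, 2464 moved one way in experiments 1, 2 and 3 alike (43.7% of all genes tested did), and for 1967 the 3 glucagon arrays did not overlap the 3 insulin arrays, against 20.9% of all genes tested. Both groups lay below 5 for 466 of the called genes. Of the 7740 genes at 5 or above in a group, 777 rose and 1238 fell, a larger share than over all genes tested. Counts in lists of brighter genes below are to be read beside that share. Without the experiment number in the model, 1039 genes were called (379 rose, 1.71%, and 660 fell, 2.98%), 4.68% of those tested, and all of them were among the 2481. With each array centred on its own median, 764 genes rose and 1917 fell, so the share of falls went from 58.4% to 71.5% and the preponderance of falls depends in size on the scaling.

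**Figure D1:**
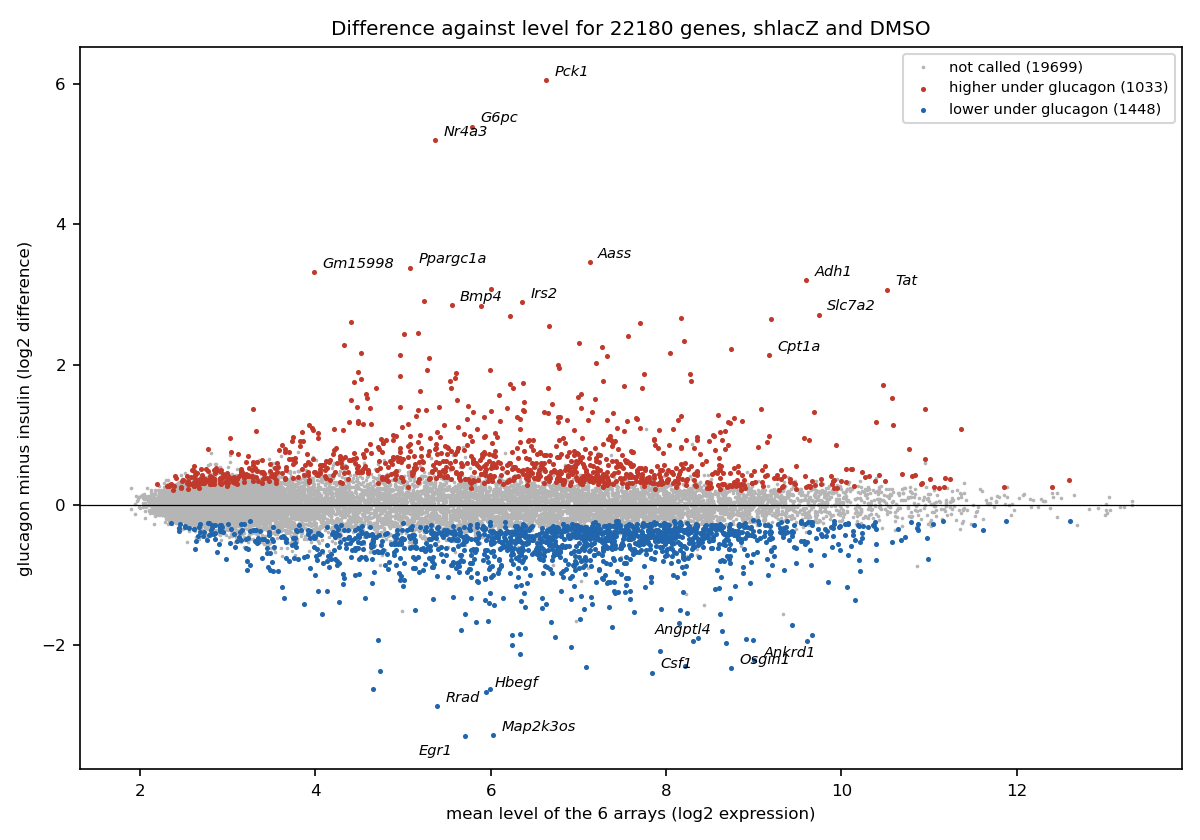
Each point is 1 of 22180 genes: the x axis is the mean log2 level of the 6 arrays and the y axis the glucagon minus insulin difference (log2). Red points (1033) rose, blue points (1448) fell and grey points were not called. The points furthest from 0 are Pck1, G6pc and Nr4a3 above and Egr1 and Map2k3os below.

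Of all genes called, Pck1 and G6pc, both of glucose production, had the largest rises. Pck1 encodes the cytosolic phosphoenolpyruvate carboxykinase, which commits carbon to gluconeogenesis. Its log2 level was 3.44, 3.69 and 3.69 under insulin and 10.32, 8.99 and 9.68 under glucagon in experiments 1, 2 and 3. It was therefore close to the array's floor on every insulin array and well above it on every glucagon array. The difference was 6.06 ± 0.39 (SE) (limma, adjusted p = 1.95e-09), or 66.6-fold. G6pc, the catalytic subunit of glucose-6-phosphatase that releases free glucose, was at 2.83, 3.01 and 3.42 under insulin and 8.80, 8.59 and 8.05 under glucagon. The 2 groups again lay far apart, with a difference of 5.39 ± 0.37 (SE) (adjusted p = 5.38e-09), or 42-fold. Since the insulin values of both genes lie at the floor, where array signals compress, these folds may understate the change of the transcripts. The same holds for each gene below whose values lie near the floor under 1 of the hormones.

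Other enzymes of the pathway moved less. The aminotransferases Got1 and Gpt2, which turn aspartate and alanine into gluconeogenic substrates, went from 9.62 ± 0.20 to 11.33 ± 0.14 (SD, n = 3) and from 9.81 ± 0.16 to 10.98 ± 0.10 (SD, n = 3), with differences of 1.71 ± 0.09 (SE) and 1.17 ± 0.10 (SE) (adjusted p = 7.93e-11 and 1.77e-07). Fbp1, the fructose bisphosphatase, was at 6.07, 5.0 and 5.65 under insulin and 6.51, 6.22 and 6.64 under glucagon, a difference of 0.88 ± 0.17 (SE) (adjusted p = 0.00121), lost without experiment 2 and, at an adjusted p of 0.26, without the experiment term. Aqp9, the glycerol channel of hepatocytes, moved the opposite way. Its level was 7.39, 7.02 and 7.90 under insulin and 6.41, 6.07 and 6.79 under glucagon, lower under glucagon in each experiment, a difference of -1.01 (adjusted p = 1.25e-07, and 0.103 without the experiment term). Pyruvate carboxylase (Pcx), the glucose-6-phosphate transporter Slc37a4 and the mitochondrial Pck2 differed by 0.30, 0.27 and 0.15 and did not pass. Of the 18 gluconeogenesis genes tested, 9 rose, 1 fell and 8 missed the threshold, with a median difference of 0.37 against 0.01 over all genes. The count of rises was 4 without the experiment term and 4 without experiment 2.

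Among 20 listed regulators that answer cyclic AMP or take part in its signalling, 8 rose and 1 fell. The orphan nuclear receptor Nr4a3 stood at 3.00, 2.54 and 2.75 under insulin and 8.03, 7.97 and 7.91 under glucagon. It was at the floor with insulin and almost identical on the 3 glucagon arrays, with a difference of 5.20 ± 0.15 (SE) (adjusted p = 9.2e-15), the lowest adjusted p of the genes named here. Its relative Nr4a1 was at 4.14, 4.31 and 4.47 under insulin and 6.28, 5.76 and 6.66 under glucagon, a difference of 1.93 ± 0.24 (SE) (adjusted p = 1.03e-05). Ppargc1a encodes PGC-1α, the coactivator that drives Pck1 and G6pc with FOXO1 and HNF4α. Its level was 3.26, 3.00 and 3.91 under insulin and 6.62, 6.12 and 7.58 under glucagon, and the groups did not overlap although experiment 3 was the highest in both. The difference was 3.38 ± 0.20 (SE) (adjusted p = 7.66e-10).

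Sik1, a kinase induced by CREB that in turn inhibits CRTC coactivators, went from 7.04 ± 0.22 to 9.37 ± 0.21 (SD, n = 3), a difference of 2.33 ± 0.10 (SE) (adjusted p = 9.61e-12). Rgs2, which shortens G protein signalling, was at 3.10, 2.79 and 3.42 under insulin and 5.22, 5.91 and 5.99 under glucagon, a difference of 2.60 ± 0.35 (SE) (adjusted p = 2.67e-05). A dimmer second probe set of Rgs2 also rose. The fasting factor Klf15 differed by 2.09 ± 0.33 (SE) and the IGF-binding protein Igfbp1 by 1.52 ± 0.17 (SE) (adjusted p = 0.000189 and 3.02e-06). Crem and Per1, often used as readouts of CREB, differed by 0.30 and 0.02 (adjusted p = 0.109 and 0.926) and did not pass, nor did Ppargc1b (0.07). Crem and Ppargc1b lay below 5 in both groups, and Crem was called in the fit of the 12 shlacZ arrays. With Crem, Per1 and Ppargc1b counted, 11 of the 20 did not pass in the main fit, and the median of the list was 0.32. Without the experiment term 7 rose. The fall was that of the stress gene Gadd45b, from 9.14 to 8.12 (adjusted p = 0.0119), and it was lost without the experiment term (0.0906), without experiment 1, without experiment 2 and in the fit of the 12 shlacZ arrays.

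**Figure D2:**
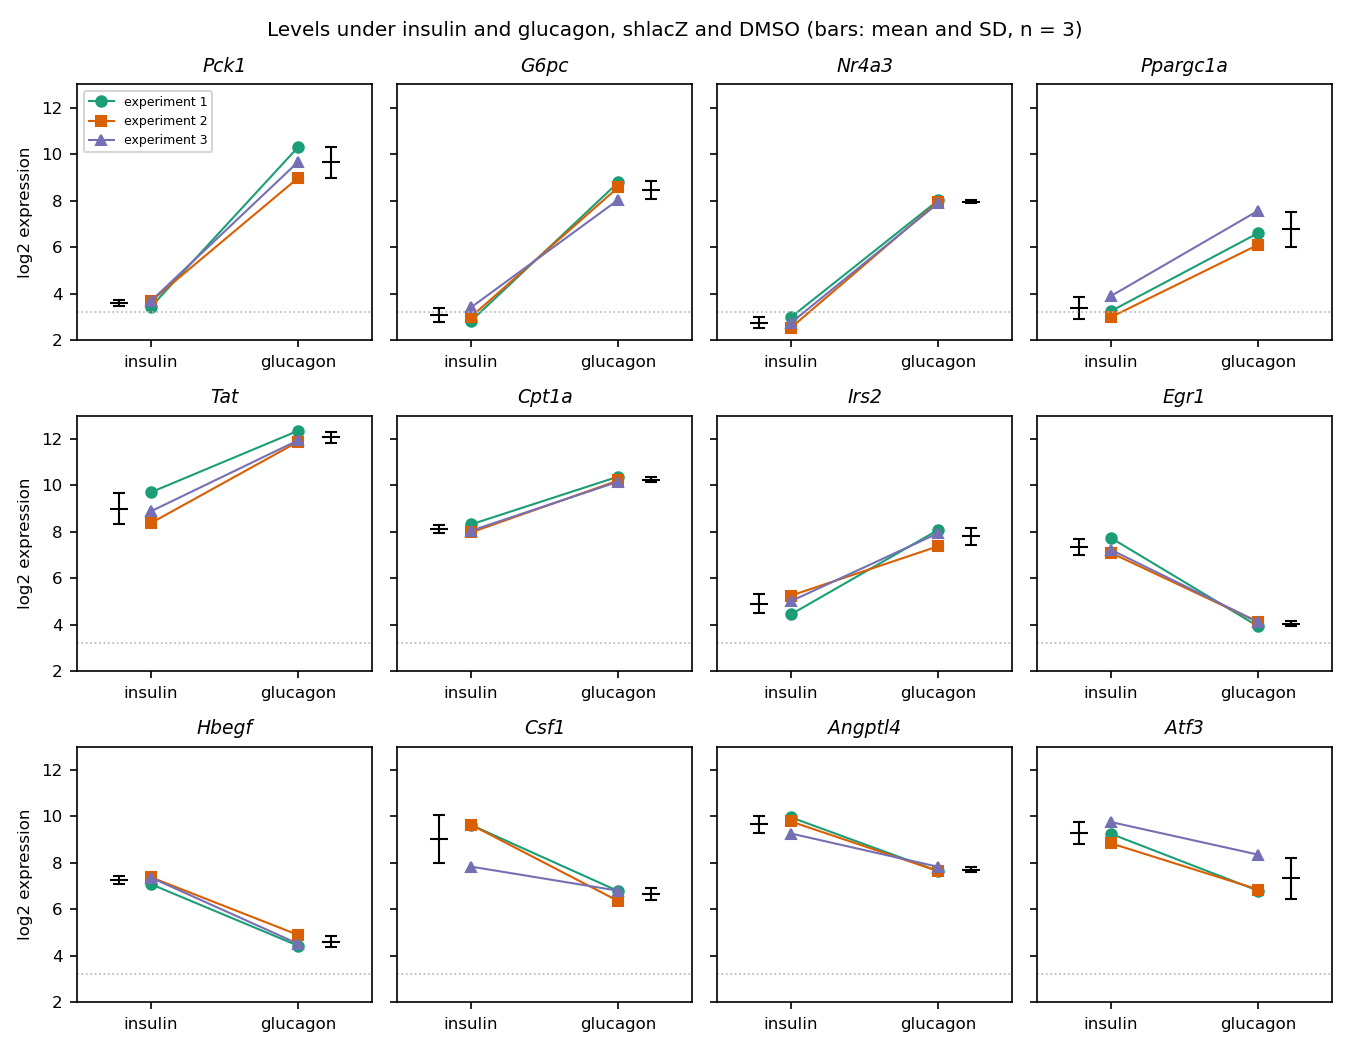
Log2 expression of 12 genes under insulin (left of each panel) and glucagon (right), 1 line per experiment, with the mean and SD (n = 3) beside the points and a dotted line at the median level of all genes under insulin. Pck1, G6pc and Nr4a3 start near the dotted line and rise in each experiment, while Egr1, Hbegf, Csf1, Angptl4 and Atf3 fall in each.

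The promoters of 4 of these genes are shown because CREB is known to bind the sequence TGACGTCA and its half-site TGACG. The windows run from 250 bases before to 50 bases after the transcript start that RefSeq gives on GRCm38.p6, read 5′ to 3′ along the gene's own strand. Capitals mark TGACG or, for the other strand, CGTCA. The positions are chr2:173152823-173153122 on the plus strand for Pck1, chr4:48045055-48045354 on the plus strand for Nr4a3, chr15:101266596-101266895 on the plus strand for Nr4a1 and chr5:51567676-51567975 on the minus strand for Ppargc1a.
Pck1: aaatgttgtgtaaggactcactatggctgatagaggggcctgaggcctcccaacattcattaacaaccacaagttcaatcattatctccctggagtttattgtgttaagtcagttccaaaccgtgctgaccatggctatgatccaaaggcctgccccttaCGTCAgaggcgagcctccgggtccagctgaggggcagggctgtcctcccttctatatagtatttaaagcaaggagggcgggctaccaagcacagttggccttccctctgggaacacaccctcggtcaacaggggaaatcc
Nr4a3: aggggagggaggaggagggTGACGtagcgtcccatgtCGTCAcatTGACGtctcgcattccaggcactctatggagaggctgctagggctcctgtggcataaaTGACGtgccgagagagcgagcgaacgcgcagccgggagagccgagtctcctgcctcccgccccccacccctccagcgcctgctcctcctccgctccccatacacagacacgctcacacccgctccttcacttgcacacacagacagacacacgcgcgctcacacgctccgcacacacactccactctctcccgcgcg
Nr4a1: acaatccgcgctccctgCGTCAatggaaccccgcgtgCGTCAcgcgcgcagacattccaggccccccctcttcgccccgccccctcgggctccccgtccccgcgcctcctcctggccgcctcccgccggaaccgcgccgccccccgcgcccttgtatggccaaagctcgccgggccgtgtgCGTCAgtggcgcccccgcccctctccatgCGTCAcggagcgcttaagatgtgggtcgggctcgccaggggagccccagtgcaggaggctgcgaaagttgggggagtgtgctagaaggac
Ppargc1a: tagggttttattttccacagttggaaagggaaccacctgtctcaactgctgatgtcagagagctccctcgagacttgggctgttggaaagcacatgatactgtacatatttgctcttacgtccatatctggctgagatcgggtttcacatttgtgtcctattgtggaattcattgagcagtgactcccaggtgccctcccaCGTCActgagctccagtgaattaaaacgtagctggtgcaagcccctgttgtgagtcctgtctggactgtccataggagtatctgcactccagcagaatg
Pck1 holds 1 half-site, which begins 90 bases before the start. Nr4a3 holds 4, beginning 231, 213, 205 and 147 bases before the start. Nr4a1 also holds 4, beginning 233, 213, 69 and 40 bases before it, and Ppargc1a holds 1, beginning 49 bases before it. None of the 4 windows holds the full TGACGTCA. The windows of G6pc, Tat, Irs2 and Cpt1a, which rose by more than 4-fold, hold neither sequence. Over all 16990 tested genes with a promoter window, 26.8% hold the half-site and 2.65% the full site, on either strand, the full site containing the half-site. The half-site stood in 32.6% of 825 genes that rose and 36.4% of 1166 that fell, and in 38.4% of the 6208 genes at a level of 5 or above in a group. Among genes that moved by more than 2-fold, 24.2% of 120 that rose and 33.0% of 100 that fell held the half-site, and 0 of the 120 and 7 of the 100 held the full site. A match is a description of the letters and not a measured site.

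Of 17 genes for the glucagon receptor, adenylyl cyclases and protein kinase A, 1 rose, 2 fell and 14 missed the threshold, with a median of 0.02, where 11.2% of all genes were called. The cyclase Adcy9 was at 5.68, 5.72 and 5.74 under insulin and 7.0, 7.54 and 6.63 under glucagon, with no overlap and a difference of 1.34 ± 0.16 (SE) (adjusted p = 6.93e-06). The kinase anchor Akap12 was at 6.04, 5.90 and 5.38 under insulin and 5.18, 5.11 and 4.51 under glucagon, lower in every experiment, a difference of -0.84 (adjusted p = 4.9e-06, and 0.213 without the experiment term). The catalytic subunit Prkacb fell by 0.30 on the log2 scale (adjusted p = 0.00669), a call lost without experiment 1, without experiment 2 or in the fit of the 6 arrays alone. The receptor Gcgr lay near the floor, at 3.43 to 3.58, and its difference was 0.16 (adjusted p = 0.627). Phosphodiesterases, which degrade cyclic AMP, gave 3 rises in 14 genes and no fall. These were Pde10a, 3.40 to 4.24, Pde4b, 2.66 to 3.42, and Pde3b, 7.45 to 7.98, with differences of 0.84, 0.76 and 0.52 (adjusted p = 0.000444, 0.000165 and 0.00353). Pde10a and Pde4b lay below 5 in both groups, and the call of Pde3b was lost without experiment 1 or without experiment 2.

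Of 17 genes of insulin receptor signalling and FOXO, 5 rose, 2 fell and 10 missed the threshold, with a median of 0.17. Without experiment 1, 3 rose. Irs2, the adaptor that couples the insulin receptor to PI3-kinase, was at 4.45, 5.26 and 5.02 under insulin and 8.09, 7.38 and 7.95 under glucagon. The insulin arrays all lay below the glucagon arrays, with a difference of 2.89 ± 0.20 (SE) (adjusted p = 8.17e-09). The insulin receptor Insr went from 8.10 ± 0.06 to 8.54 ± 0.21 (SD, n = 3), a difference of 0.44 ± 0.09 (SE) (adjusted p = 0.00316), which was lost without experiment 1 or without experiment 2. Foxo1 itself went from 7.60 ± 0.18 to 8.33 ± 0.09 (SD, n = 3), a difference of 0.73 ± 0.11 (SE) (adjusted p = 8.83e-05). Grb14, an adaptor that inhibits the insulin receptor, differed by 1.15 ± 0.17 (SE) (adjusted p = 7.77e-05). The PI3-kinase subunit Pik3cb fell by 0.63 on the log2 scale (adjusted p = 4.31e-05), and the phosphatase Ptpn1 fell by 0.31 (adjusted p = 0.0409) but did not pass without the experiment term or without any 1 experiment. Irs1 differed by 0.70 near the floor (adjusted p = 0.121) and did not pass.

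The transcription factors that define hepatocytes were also mostly higher under glucagon where they were called. Foxa2 and Foxa1 are pioneer factors that open liver enhancers, and both are known to act in the fasting response. Foxa2 was at 6.30, 6.28 and 6.22 under insulin and 7.46, 7.72 and 7.24 under glucagon. Its arrays did not overlap, and the difference was 1.21 ± 0.14 (SE) (adjusted p = 5.05e-06). Foxa1 was at 6.08, 6.02 and 6.39 under insulin and 7.41, 7.41 and 7.45 under glucagon, a difference of 1.26 ± 0.09 (SE) (adjusted p = 1.26e-08). Hnf4a went from 7.39 ± 0.29 to 8.46 ± 0.10 (SD, n = 3), Cebpa from 6.05 ± 0.27 to 6.88 ± 0.15 (SD, n = 3) and Prox1 from 5.64 ± 0.76 to 7.11 ± 0.31 (SD, n = 3), with differences of 1.07, 0.83 and 1.47 (adjusted p = 0.000134, 8.98e-05 and 0.000948). The call of Prox1 was lost without experiment 1 or without experiment 2. Foxa3 differed by -0.23 (adjusted p = 0.24) and did not pass. Gata4 was the only factor of the list called lower, from 5.71 ± 0.13 to 5.08 ± 0.15 (SD, n = 3) (adjusted p = 0.00108), and was not called without experiment 1. Of 19 factors, 8 rose, 1 fell and 10 missed the threshold, with a median of 0.33; 6 rose without the experiment term and 4 without experiment 1. The shlacZ hairpin does not target Foxa2, and hepatocyte markers as a list gave 4 rises and no fall in 7 genes, 2 of the 4 without the experiment term.

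Amino acid breakdown and the urea cycle held the most rises of the metabolic lists, 14 in 28 genes, and was also the longest of them. Gluconeogenesis held the same share of rises, 9 in 18. Tat, the tyrosine aminotransferase and a classical target of glucagon and glucocorticoid, was at 9.70, 8.38 and 8.88 under insulin and 12.35, 11.88 and 11.94 under glucagon. Its lowest glucagon array lay above its highest insulin array, with a difference of 3.07 ± 0.27 (SE) (adjusted p = 1.32e-07). Aass begins the breakdown of lysine and was at 5.0, 4.79 and 6.41 under insulin and 8.69, 8.79 and 9.11 under glucagon. The insulin value of experiment 3 was the highest of the 3, and the difference was 3.46 ± 0.27 (SE) (adjusted p = 4.03e-08). Slc25a15 carries ornithine into mitochondria for the urea cycle and was at 6.66, 6.74 and 7.11 under insulin and 9.49, 9.42 and 9.59 under glucagon, a difference of 2.66 ± 0.14 (SE) (adjusted p = 1.14e-10). Etnppl, which breaks down phosphoethanolamine, went from 4.46 ± 0.18 to 7.54 ± 0.51 (SD, n = 3), a difference of 3.08 ± 0.24 (SE) (adjusted p = 3.48e-08).

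Arginase (Arg1) was called only in the paired comparison. Its level was 5.97, 4.44 and 7.04 under insulin and 7.53, 6.50 and 8.42 under glucagon, so the groups overlap, yet glucagon was higher in each experiment, by 1.56, 2.06 and 1.38 in experiments 1, 2 and 3. Its adjusted p was 2.29e-05 with the experiment term and 0.49 without it. Cps1, the first urea cycle enzyme, and Tdo2, which begins tryptophan breakdown, differed by 1.32 ± 0.26 (SE) and 1.66 ± 0.39 (SE) (adjusted p = 0.00154 and 0.00697). Both calls were lost without the experiment term (0.398 and 0.112). That of Tdo2 was lost also in the fit of the 6 arrays alone, without experiment 1, without experiment 2 and without the glucagon array of experiment 2. Over 28 genes, 14 rose, none fell and 14 missed the threshold, with a median of 0.37. The count was 5 without the experiment term, 9 without experiment 1 and 8 without experiment 2.

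Amino acid transporters split in both directions. The cationic transporter Slc7a2 was at 8.35, 8.78 and 8.02 under insulin and 11.27, 10.94 and 11.08 under glucagon, a difference of 2.71 ± 0.19 (SE) (adjusted p = 7.88e-09), and the mitochondrial glutamate carrier Slc25a22 went from 6.27 ± 0.15 to 8.39 ± 0.17 (SD, n = 3), a difference of 2.11 ± 0.17 (SE) (adjusted p = 5.58e-08). Slc7a1, which also carries cationic amino acids, went the opposite way, 8.03, 8.0 and 8.20 under insulin and 7.14, 6.38 and 6.96 under glucagon, a difference of -1.25 ± 0.14 (SE) (adjusted p = 4.52e-06). Slc7a5, which carries large neutral amino acids, and Slc1a4, which carries small neutral ones, fell by 0.98 and 1.11 on the log2 scale (adjusted p = 3.25e-05 and 2.31e-06). Of 20 transporters, 5 rose, 5 fell and 10 missed the threshold, with a median of 0.03; without the experiment term 3 rose and 3 fell.

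In lipid metabolism the entry step of mitochondrial fatty acid oxidation stood out. Cpt1a, the carnitine palmitoyltransferase that admits fatty acids to mitochondria, was at 8.32, 7.97 and 8.05 under insulin and 10.37, 10.21 and 10.16 under glucagon. Its 2 groups were each tight and far apart, with a difference of 2.13 ± 0.11 (SE) (adjusted p = 7.93e-11). The lipid droplet protein Plin2 and the lipoprotein lipase inhibitor Angptl4, which PPARα and other fatty acid sensors are known to induce, were lower under glucagon. Angptl4 was at 9.95, 9.78 and 9.26 under insulin and 7.64, 7.64 and 7.83 under glucagon, a difference of -1.96 ± 0.14 (SE) (adjusted p = 1.34e-08). Plin2 fell by 0.77 on the log2 scale (adjusted p = 4.98e-05, and 0.156 without the experiment term). Among 21 genes of oxidation and ketogenesis, 6 rose, 2 fell and 13 missed the threshold, with a median of 0.18. The rises numbered 3 without the experiment term, without experiment 1 and without experiment 2.

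No lipogenic gene of the list was called lower at 4 h. Of 24 genes of lipogenesis and lipid storage, 8 rose, none fell and 16 missed the threshold, with a median of 0.21; 3 rose without the experiment term and 4 without experiment 1. The lipins Lpin1 and Lpin2, phosphatidate phosphatases of which Lpin1 also acts as a coactivator with PGC-1α, went from 5.50 ± 0.54 to 7.23 ± 0.35 (SD, n = 3) and from 8.11 ± 0.29 to 9.30 ± 0.31 (SD, n = 3), with differences of 1.74 ± 0.18 (SE) and 1.19 ± 0.13 (SE) (adjusted p = 1.54e-06 and 3.83e-06). Gpam, which begins glycerolipid synthesis, differed by 0.96 ± 0.15 (SE) (adjusted p = 0.000121) and the ATP citrate lyase Acly by 0.42 ± 0.09 (SE) (adjusted p = 0.0023, and 0.0593 without the experiment term), the latter lost also without experiment 2. Srebf1, whose product mediates the lipogenic action of insulin, was at 5.62, 5.65 and 5.69 under insulin and 5.76, 5.63 and 5.87 under glucagon. Its arrays overlapped and it did not pass, with a difference of 0.10 ± 0.14 (SE) (adjusted p = 0.742).

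Among 15 genes of glycolysis and glucose uptake, 2 rose and 13 did not pass, with a median of 0.12. With arrays centred on their medians, with only genes at 5 or above or without experiment 3, 2 fell. The smaller of the rises, that of Gapdh (0.26), was lost without any 1 of the 3 experiments. Pfkfb2, which makes and breaks the glycolytic activator fructose 2,6-bisphosphate, was at 4.88, 4.83 and 5.39 under insulin and 7.03, 6.96 and 6.89 under glucagon, a difference of 1.93 ± 0.16 (SE) (adjusted p = 5.58e-08). The liver pyruvate kinase Pklr differed by 0.02 (adjusted p = 0.936) and did not pass. In glycogen metabolism 3 of 14 genes rose and 2 fell. The glycogen-targeting subunits of protein phosphatase 1 encoded by Ppp1r3c and Ppp1r3b differed by 0.76 and 0.65 (adjusted p = 0.0488 and 0.00698). The Ppp1r3b probe set used averaged 4.18 over all arrays, and a dimmer second one did not pass. None of the 3 glycogen rises passed without the experiment term, without experiment 1, without experiment 2 or without the glucagon array of experiment 2. The other rise was that of the phosphorylase Pygl and the falls were those of Gsk3b and Pgm2. Neither fall passed without experiment 1, without experiment 2, or with either the glucagon array of experiment 2 or the insulin array of experiment 1 left out. Liver glycogen synthase Gys2 lay below 5 in both groups and did not pass (adjusted p = 0.287).

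Of 14 genes of cholesterol synthesis and uptake, 6 rose, none fell and 8 missed the threshold, with a median of 0.22. With arrays centred on their medians, or with only genes at 5 or above, 1 fell. The largest of these was Insig1, which holds the sterol sensor in the endoplasmic reticulum, at 7.96, 6.67 and 7.88 under insulin and 8.82, 7.47 and 8.64 under glucagon. Experiment 2 lay lower in both groups, and the difference was 0.81 ± 0.11 (SE) (adjusted p = 5.38e-05). None of the 6 passed without the experiment term, where Insig1 had an adjusted p of 0.462, and 3 passed without experiment 1 or without experiment 2.

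Bile acid genes are the setting of FXR, the receptor encoded by Nr1h4. Nr1h4 was at 6.17, 5.68 and 5.88 under insulin and 5.54, 5.59 and 4.92 under glucagon, lower on each glucagon array than on every insulin array, by -0.56 ± 0.23 (SE), and did not pass (adjusted p = 0.14). The bile salt export pump Abcb11, a direct FXR target, was at 4.62, 5.10 and 5.87 under insulin and 3.54, 4.05 and 4.68 under glucagon. It was lower in each experiment, by -1.09, -1.06 and -1.19, with an adjusted p of 1.91e-05, and 0.155 without the experiment term. The uptake transporter Slco1a4 differed by 1.75 ± 0.37 (SE) (adjusted p = 0.00333), with 2.92, 1.22 and 1.12 in the 3 experiments, and did not pass without experiment 1 or without the experiment term (0.0769). The FXR target Nr0b2 and the bile acid synthesis enzyme Cyp7a1 lay near the floor, at 2.89 to 3.01 and 2.60 to 2.75, and did not pass (adjusted p = 0.733 and 0.361). Of 19 genes, 2 rose, 1 fell and 16 missed the threshold. None passed without the experiment term.

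Of 17 immediate-early genes, none rose, 7 fell and 10 missed the threshold, with a median of -0.41. Without the experiment term 5 fell. Egr1, a zinc finger factor that growth factors induce through the MAP kinases, was at 7.74, 7.10 and 7.23 under insulin and 3.93, 4.12 and 4.12 under glucagon. The insulin arrays lay clear above the glucagon arrays, which were near the floor, with a difference of -3.30 ± 0.18 (SE) (adjusted p = 1.34e-10). Ier2 was at 7.39, 6.90 and 7.21 under insulin and 5.11, 5.41 and 5.42 under glucagon, a difference of -1.85 ± 0.22 (SE) (adjusted p = 6.11e-06). Klf6, Junb and Myc, all growth-responsive transcription factors, went from 10.65 ± 0.04 to 9.48 ± 0.16 (SD, n = 3), from 8.05 ± 0.43 to 6.79 ± 0.40 (SD, n = 3) and from 10.08 ± 0.20 to 9.22 ± 0.30 (SD, n = 3). Their differences were -1.17, -1.26 and -0.86 (adjusted p = 5.79e-07, 0.00147 and 4.86e-05), and that of Junb was lost without experiment 1 or without experiment 2.

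Of 16 genes that MAP kinase signalling induces to restrain itself, none rose, 6 fell and 10 missed the threshold, with a median of -0.21. Without experiment 2, 3 fell, and 1 rose with only genes at 5 or above or with a trend in the moderation. The ERK phosphatase Dusp6 was at 7.99, 8.10 and 7.40 under insulin and 6.12, 5.95 and 6.53 under glucagon, a difference of -1.63 ± 0.36 (SE) (adjusted p = 0.00443), lost without experiment 1 or without experiment 2. A dimmer second probe set of Dusp6, near the floor, did not pass. Dusp8, which acts on JNK and p38, was at 5.68, 5.71 and 6.28 under insulin and 4.10, 3.88 and 5.18 under glucagon, a difference of -1.50 ± 0.16 (SE) (adjusted p = 1.54e-06). The Sprouty proteins Spry1 and Spry4 inhibit receptor tyrosine kinase signalling, and they fell by 1.33 and 0.93 on the log2 scale to levels near the floor (adjusted p = 5.41e-05 and 5.19e-06). Dusp1, which cyclic AMP is also known to induce, went from 9.80 ± 0.22 to 10.09 ± 0.14 (SD, n = 3) and did not pass (adjusted p = 0.0881).

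Around the EGF receptor 2 rose, 3 fell and 7 missed the threshold. The ligand Hbegf was at 7.08, 7.38 and 7.37 under insulin and 4.43, 4.90 and 4.52 under glucagon. Its groups were tight and did not overlap, with a difference of -2.66 ± 0.15 (SE) (adjusted p = 2.79e-10). Phlda1, a target of growth factor signalling, was at 7.40, 7.48 and 7.05 under insulin and 3.81, 4.84 and 5.39 under glucagon, a difference of -2.63 ± 0.38 (SE) (adjusted p = 6.98e-05). Lrig1, which promotes receptor degradation, went from 7.80 ± 0.11 to 6.32 ± 0.33 (SD, n = 3), a difference of -1.48 ± 0.16 (SE) (adjusted p = 1.86e-06). The 2 rises, Egfr and Errfi1, were of 0.34 and 0.30. Neither passed without the experiment term, in the fit of the 6 arrays alone, without experiment 1, without experiment 2 or without the glucagon array of experiment 1.

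Targets of YAP and SRF, which sense adhesion and actin, fell where they were called. Ccn2 (CTGF) was at 10.32, 10.64 and 9.93 under insulin and 8.35, 8.79 and 8.60 under glucagon, a difference of -1.72 ± 0.14 (SE) (adjusted p = 4.37e-08). Ccn1 (CYR61) was at 11.18, 10.83 and 10.51 under insulin and 9.16, 9.14 and 10.13 under glucagon, with experiment 3 the highest under glucagon, a difference of -1.36 ± 0.27 (SE) (adjusted p = 0.0015), lost without experiment 1 or without experiment 2. Ankrd1 was at 10.09, 10.13 and 9.65 under insulin and 7.11, 8.44 and 8.55 under glucagon, and differed by -2.98, -1.70 and -1.10 in experiments 1, 2 and 3. Actg1, a cytoplasmic actin, fell by 0.79 on the log2 scale (adjusted p = 0.000189, and 0.212 without the experiment term). Of 22 genes, none rose, 6 fell and 16 missed the threshold, with a median of -0.14, and 3 fell without experiment 2. Amotl2, Lats2 and Axl of this list did not pass in the main fit or in any alternative. Over the alternatives their differences ranged from -0.22 to -0.09, from 0.08 to 0.35 and from -0.16 to 0.14.

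**Figure D3:**
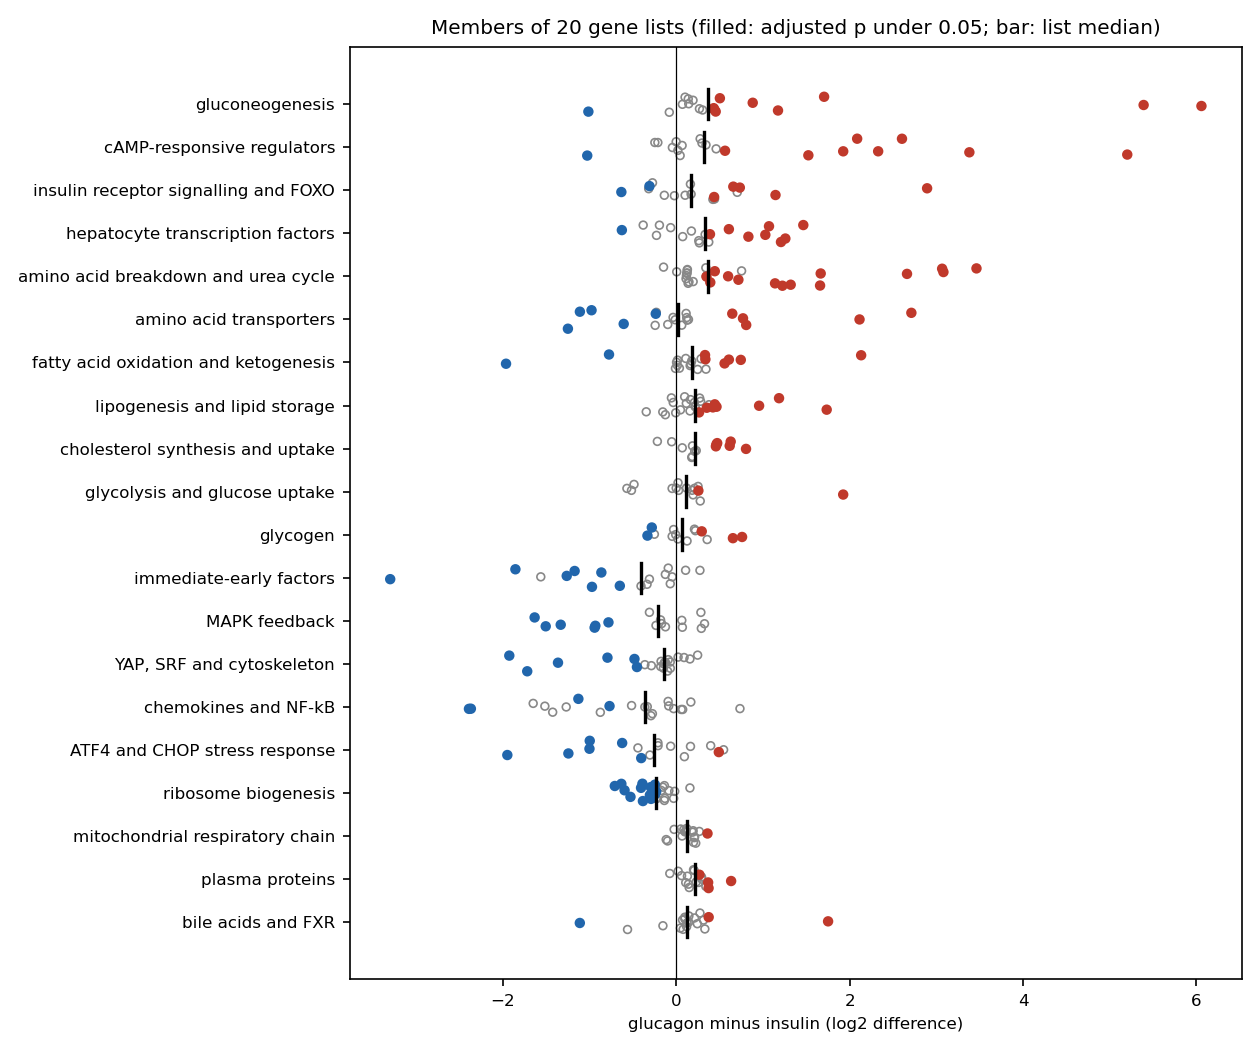
Glucagon minus insulin difference (log2, x axis) of every tested member of 20 gene lists (rows). Filled points passed an adjusted p of 0.05 (red rose, blue fell), open points did not pass, and the black bar is the list's median. Gluconeogenesis and cAMP-responsive regulators reach above 5, and the immediate-early, MAPK feedback and YAP lists hold blue points and no red ones.

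Chemokine and NF-κB genes differed between the experiments, and the medians of the 3 experiments lay further apart for them than for any other list. The cytokine Csf1, a growth factor for macrophages, was at 9.63, 9.64 and 7.84 under insulin and 6.78, 6.35 and 6.80 under glucagon. Experiment 3 started lower under insulin than the other two, so its difference was -2.85, -3.28 and -1.04 in experiments 1, 2 and 3 and -2.39 ± 0.34 (SE) over all (adjusted p = 6.16e-05). Il23a, a subunit of interleukin 23, was at 6.68, 5.70 and 5.37 under insulin and 3.32, 3.36 and 3.97 under glucagon, a difference of -2.37 ± 0.40 (SE) (adjusted p = 0.000351). The neutrophil attractant Cxcl1 was at 7.87, 8.32 and 7.19 under insulin and 4.92, 5.43 and 8.08 under glucagon. It was lower with glucagon in experiments 1 and 2 and higher in experiment 3, and it did not pass (adjusted p = 0.144). Cxcl2 had the same pattern, 5.77, 5.91 and 5.56 under insulin and 3.61, 3.06 and 6.03 under glucagon (adjusted p = 0.105). Icam1 and Tnfaip3, NF-κB targets named here after their values were seen, were at 9.25, 9.35 and 7.98 under insulin and 7.07, 7.34 and 8.36 under glucagon and at 9.31, 9.55 and 8.57 under insulin and 6.92, 7.33 and 8.91 under glucagon, and did not pass (adjusted p = 0.0818 and 0.0596).

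On this list of 21 genes, none rose, 4 fell (Csf1, Il23a, Lif and Relb) and 17 did not pass, with a median of -0.36. The calls of Lif and Relb were lost without experiment 1, without experiment 2 and in the fit of the 6 arrays alone. That of Lif was lost also without the experiment term (0.234), and Lif passed in only 6 of 16 alternatives. By experiment, its medians were -0.83, -0.86 and 0.34. The glucagon minus insulin difference was highest in experiment 3 for 18 of the 21, against 8048 of all 22180 genes. The insulin array of experiment 3 was the lowest of its group for 17 of the 21, against 8729 of all 22180 genes. The glucagon array of experiment 3 was the highest of its group for 16 of the 21, against 7416 of all 22180 genes. Without experiment 3, 13 of the 21 fell, with a median of -0.76. Without its glucagon array 9 fell, without its insulin array 7, and without experiment 1 or experiment 2, 2 fell. Beside this, the summed log2 level of the 9 macrophage and Kupffer markers tested ranged from 30.9 to 32.8 on the insulin arrays and from 31.7 to 34.0 on the glucagon arrays, with Adgre1 and Clec4f near the floor. Of them, Cd68 went from 9.12 ± 0.61 to 9.35 ± 0.57 (SD, n = 3), highest in experiment 3 under both hormones (adjusted p = 0.483). Their part in the result was not tested.

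Of 16 stress genes of the ATF4 and CHOP arm, 1 rose, 6 fell and 9 missed the threshold, with a median of -0.26. Without experiment 1, 3 fell. Atf3 was at 9.25, 8.84 and 9.75 under insulin and 6.80, 6.85 and 8.35 under glucagon. It was lower in each experiment, by -2.45, -1.99 and -1.40, with adjusted p = 1.86e-06. Ddit3, which encodes CHOP, was at 8.80, 8.66 and 8.98 under insulin and 7.59, 7.75 and 7.39 under glucagon, a difference of -1.24 ± 0.24 (SE) (adjusted p = 0.00147), lost without experiment 1. Sesn2 and Ppp1r15a, an inhibitor of mTORC1 and a subunit of the eIF2α phosphatase, fell by 1.00 on the log2 scale each (adjusted p = 3.17e-06 and 1.93e-06). Atf4 itself went from 9.85 ± 0.11 to 9.64 ± 0.14 (SD, n = 3) and did not pass (adjusted p = 0.102). Atf5 and Ddit4 differed by 0.10 and 0.55 and did not pass (adjusted p = 0.685 and 0.217). The rise was that of the chaperone Dnajb9 (0.49, adjusted p = 0.0288). It was lost without the experiment term (0.773), in the fit of the 6 arrays alone, without experiment 1, without experiment 2 and with any single compared array of those 2 experiments left out.

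Genes listed as NRF2 targets did not share a direction. Osgin1, an oxidative stress response gene, was at 10.74, 9.78 and 9.20 under insulin and 8.07, 7.37 and 7.30 under glucagon, a difference of -2.33 ± 0.12 (SE) (adjusted p = 1.34e-10). Hmox1, which degrades haem, was at 8.0, 7.63 and 8.21 under insulin and 9.22, 8.89 and 9.59 under glucagon, a difference of 1.29 ± 0.11 (SE) (adjusted p = 6.37e-08). Gclc, which begins glutathione synthesis, differed by 1.08 ± 0.20 (SE) (adjusted p = 0.0009), lost without experiment 1 or without experiment 2. The common NRF2 readout Nqo1 differed by 0.15 and did not pass (adjusted p = 0.665). Among the 7740 genes at 5 or above in a group, 777 rose and 1238 fell, and of these 15 genes 3 rose and 1 fell. The other 11 missed the threshold. Without experiment 2 the list had 1 rise. The third rise was that of Nfe2l2, which encodes NRF2 (0.34, adjusted p = 0.00225), lost without the experiment term (0.306), without experiment 2, without experiment 3 and in the fit of the 6 arrays alone.

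Secreted products included hepcidin, the liver hormone that limits iron absorption. Its gene Hamp was at 7.84, 8.53 and 7.25 under insulin and 9.38, 11.00 and 11.20 under glucagon. Every glucagon array lay above every insulin array, but the difference varied, with 1.54, 2.47 and 3.95 in experiments 1, 2 and 3 and 2.65 ± 0.42 (SE) over all (adjusted p = 0.000168). Bmp4, a member of the ligand family that is known to induce Hamp, was at 4.15, 4.58 and 3.65 under insulin and 6.52, 7.96 and 6.46 under glucagon, a difference of 2.85 ± 0.26 (SE) (adjusted p = 2.11e-07). Of 17 acute phase genes, 4 rose, none fell and 13 missed the threshold, with a median of 0.23. The rises numbered 2 without the experiment term and 2 without experiment 2, and 2 genes fell without experiment 3 and 1 without its insulin array. Crp rose by 0.92 but with overlapping groups, and was not called without experiment 3 or, at an adjusted p of 0.656, without the experiment term. The serum amyloid gene Saa2 went from 10.78 ± 0.67 to 10.74 ± 0.56 (SD, n = 3) and did not pass.

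Of 19 hepatokines and genes of the IGF axis, 4 rose, 3 fell and 12 missed the threshold, with 1 rise left without the experiment term and 1 without experiment 2. The activin subunits Inhba and Inhbe fell by 1.42 and 1.05 on the log2 scale (adjusted p = 2.04e-05 and 0.0072), the first with an adjusted p of 0.105 without the experiment term, and the second lost without experiment 1 or without experiment 2. Angptl8, an insulin-induced hepatokine, was at 7.96, 7.43 and 8.39 under insulin and 5.68, 6.06 and 5.98 under glucagon, a difference of -2.02 ± 0.30 (SE) (adjusted p = 0.000111).

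Of 24 ribosome biogenesis genes, 13 fell, none rose and 11 missed the threshold, with a median of -0.24, so the falls were small. Wdr43, a factor of small subunit assembly, was at 10.38, 10.45 and 10.47 under insulin and 9.66, 9.66 and 9.86 under glucagon. Each group spanned little, and the difference was -0.71 ± 0.09 (SE) (adjusted p = 9.4e-06). The snoRNP core protein Nop58 went from 10.84 ± 0.05 to 10.31 ± 0.09 (SD, n = 3) and the assembly factor Rrs1 from 7.05 ± 0.10 to 6.46 ± 0.34 (SD, n = 3), with differences of -0.53 ± 0.11 (SE) and -0.59 ± 0.12 (SE) (adjusted p = 0.00213 and 0.00247). Both were lost without experiment 2, and Nop58 also without experiment 1. A second probe set of Rrs1 did not pass. The count of falls was 7 without the experiment term, 5 without experiment 1, 1 without experiment 2 and 7 without experiment 3. It was 5 in the fit of the 6 arrays alone and 7 in that of the 12 shlacZ arrays. Leaving out either array of experiment 2 gave 7, and leaving out the insulin array of experiment 1 gave 8.

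Krüppel-like factors, clock genes and autophagy genes held calls in both directions. Among 13 Krüppel-like factors Klf15 and Klf3 rose and Klf5, Klf10 and Klf6 fell, the call of Klf3 being lost without the experiment term, without experiment 1 and without experiment 2. Klf5 was at 7.30, 7.74 and 6.70 under insulin and 5.06, 5.74 and 5.43 under glucagon, a difference of -1.84 ± 0.20 (SE) (adjusted p = 2.38e-06). Among 17 clock genes 3 rose (Cry2, Rora and Nr1d2) and 2 fell (Nr1d1 and Ciart), of which 1 rose and none fell without experiment 1 or without experiment 2. Cry2, a repressor of the clock and of cyclic AMP signalling, was at 5.27, 4.75 and 5.98 under insulin and 6.65, 6.21 and 7.14 under glucagon, higher in each experiment, by 1.38, 1.45 and 1.17 (adjusted p = 2.85e-07). Of 16 autophagy and lysosome genes 4 rose (Ulk1, Gabarapl1, Map1lc3b and Wipi1) and 1 fell (Tfe3), and 1 rose without experiment 1 or without experiment 2. Ulk1, the kinase that starts autophagy and a target of CREB and FOXO, was at 5.26, 5.33 and 5.35 under insulin and 7.10, 6.97 and 6.57 under glucagon, a difference of 1.57 ± 0.18 (SE) (adjusted p = 5.19e-06).

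The respiratory chain gave 1 rise in 17 genes, cytochrome P450 and conjugation genes 2 in 16, cell cycle genes 2 in 13, interferon genes 3 in 14, heat shock genes 3 in 10 and plasma proteins 4 in 18, with no fall in any of them. Over all genes tested 4.66% rose, and of the 7740 genes at 5 or above in a group 777 rose and 1238 fell. In alternatives, 2 cell cycle genes fell without the glucagon array of experiment 3, and 1 interferon gene fell without the insulin array of experiment 3 or with only genes at 5 or above. The respiratory chain, P450, interferon and heat shock calls were all lost without the experiment term, and the cell cycle and plasma protein lists had 1 call each. Without experiment 2 the 6 lists, in the order given, had 0, 0, 1, 1, 0 and 0 calls. The cell cycle inhibitor Cdkn1b, a FOXO target, was at 5.21, 5.22 and 5.23 under insulin and 5.81, 6.35 and 5.92 under glucagon, a difference of 0.81 ± 0.13 (SE) (adjusted p = 0.000324).

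Several of the 20 largest rises and 20 largest falls belonged to none of the lists. Adh1, the main liver alcohol dehydrogenase, was at 8.16, 7.06 and 8.77 under insulin and 11.28, 11.04 and 11.27 under glucagon, a difference of 3.20 ± 0.34 (SE) (adjusted p = 2.19e-06). Its dimmer second probe set also rose. The unnamed loci Gm15998 and AA986860 went from 2.33 ± 0.04 to 5.64 ± 0.37 (SD, n = 3) and from 3.78 ± 0.29 to 6.69 ± 0.23 (SD, n = 3), differences of 3.32 and 2.90. Fezf1, a zinc finger factor better known from the brain, was at 3.97, 4.97 and 5.69 under insulin and 6.34, 7.99 and 8.37 under glucagon, and differed by 2.37, 3.02 and 2.68 in experiments 1, 2 and 3. Cdc42ep5, an effector of the GTPase CDC42, differed by 2.54 ± 0.13 (SE) (adjusted p = 1.14e-10).

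On the falling side, the probe set named for Map2k3os, an opposite-strand transcript at the kinase gene Map2k3, was at 7.73, 7.55 and 7.73 under insulin and 4.25, 3.64 and 5.25 under glucagon, a difference of -3.29 ± 0.27 (SE) (adjusted p = 6.33e-08). Rrad, a small GTPase of the Ras family, was at 6.99, 7.55 and 5.94 under insulin and 3.63, 4.03 and 4.20 under glucagon, a difference of -2.87 ± 0.33 (SE) (adjusted p = 4.98e-06). Frmd6, which acts upstream of the Hippo kinases, and the deubiquitinase Otud1 went from 8.25 ± 0.49 to 5.94 ± 0.14 (SD, n = 3) and from 10.11 ± 0.24 to 7.90 ± 0.38 (SD, n = 3), differences of -2.31 and -2.21. The LIM protein Fhl2 and the kinases Stk40 and Plk2 differed by -2.13, -2.08 and -1.93 (adjusted p = 1.32e-07, 6.08e-08 and 1.07e-05). Hmga2-ps1, 9930111J21Rik2 and Gm11714 differed by -2.62, -2.30 and -1.99. Hmga2-ps1 is annotated as a pseudogene, so its signal may belong to a related transcript.

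All 20 largest rises and all 20 largest falls had glucagon arrays that did not overlap the insulin arrays, against 20.9% of all genes tested. All 40 passed without the experiment term, against 4.68% of all genes tested. They were chosen on these same arrays as called and largest in difference, so neither count is a test. Of the 20 rises, 12 lay below 5 under insulin, and of the 20 falls, 7 lay below 5 under glucagon. All 40 genes were chosen to have 1 sign in the 3 experiments, so their shared direction is no result. Only the sizes are compared here. Among the 20 falls the smallest difference came from experiment 3 for 15 genes, from experiment 2 for 5 and from experiment 1 for none, with medians of -2.67, -2.30 and -1.71 in experiments 1, 2 and 3. Among the 20 rises it came from experiments 1, 2 and 3 for 8, 6 and 6 genes, with medians of 2.89, 3.12 and 2.87. These genes were also chosen by their mean over the 3 experiments, so these medians are a description. Across the 7740 genes at 5 or above in a group, the differences of experiments 1 and 2 correlated at 0.875, those of 1 and 3 at 0.724 and those of 2 and 3 at 0.748, over genes that are not independent replicates.

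**Figure D4:**
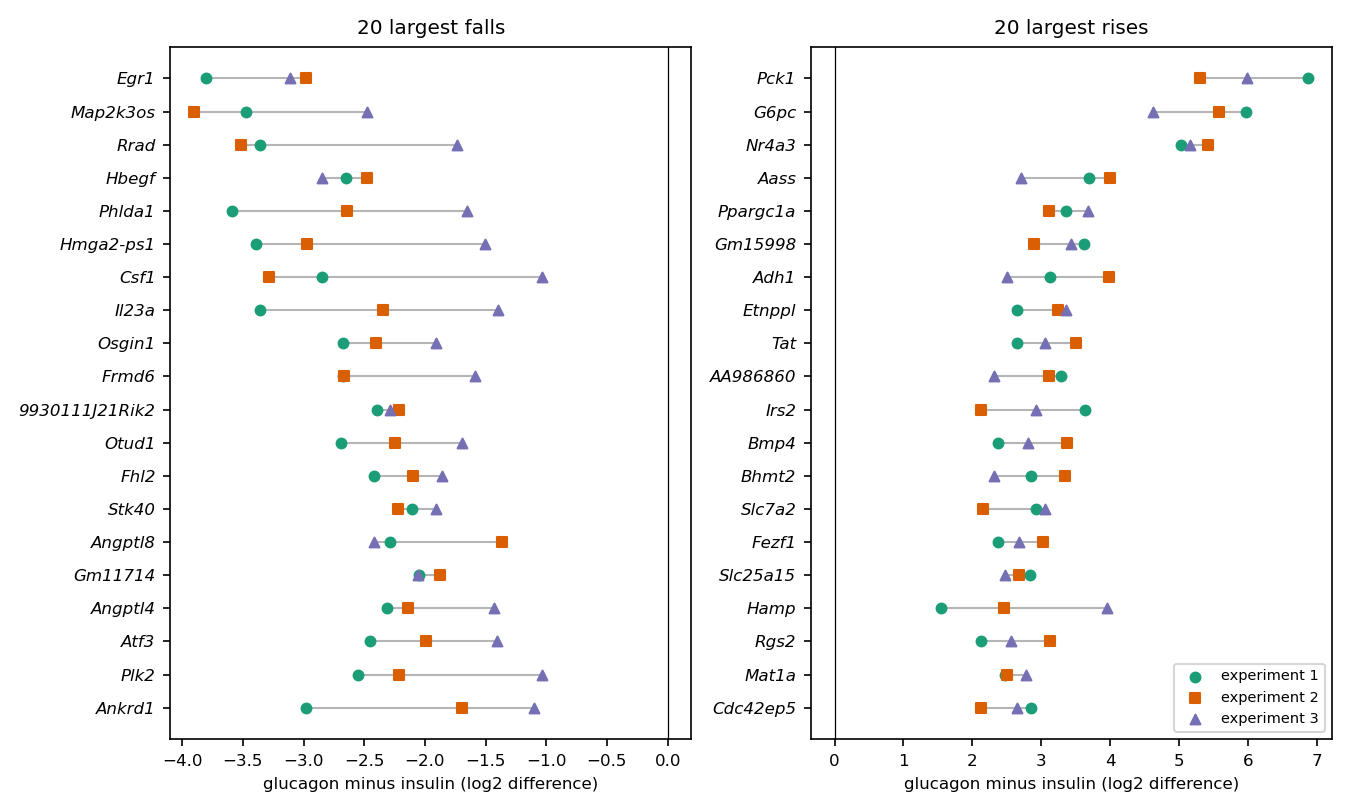
Glucagon minus insulin difference (log2, x axis) in experiments 1 (circles), 2 (squares) and 3 (triangles) for the 20 largest falls (left) and the 20 largest rises (right). Experiment 3 lies closest to 0 for 15 of the 20 falls. No point crosses 0, because the genes were chosen to have 1 sign in all 3 experiments.

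The response was also measured on 18 other arrays of the same 3 experiments and cell pools, given the FXR agonist GW4064 at 2 µM, a hairpin against Foxa2 (shFOXA2), or both. Glucagon against insulin called 1865 genes (8.41%) with shlacZ and GW4064, 2500 (11.3%) with shFOXA2 and DMSO, and 2027 (9.14%) with shFOXA2 and GW4064. Of the 1033 genes that rose with shlacZ and DMSO, 94.9%, 89.1% and 93.9% had the same sign in those 3 conditions, and of the 1448 that fell, 1408, 1375 and 1395 genes did. Over all genes these shares were 66.7%, 60.4% and 64.8%. Called the same way were 58.0%, 61.5% and 56.4% of the genes that rose and 57.0%, 61.1% and 60.8% of those that fell. All 40 of the largest rises and falls were called in each of the 3 conditions.

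No gene passed the test of a different hormone response between GW4064 and DMSO with shlacZ, or between shFOXA2 and shlacZ with DMSO. In limma, 997 and 1921 of the 22180 genes had an unadjusted p under 0.05 for these differences. The first count is below and the second above a share of 0.05 of the genes tested. The lowest adjusted p was 0.9998 and 0.166. These counts come from 3 experiments and do not show that the responses were alike. For Pck1, whose difference was 6.06 with shlacZ and DMSO, it was 6.20, 5.92 and 5.98 in the other 3 conditions in the order above. The change of the response was 0.14 ± 0.54 (SE) with GW4064 and -0.14 ± 0.54 (SE) with shFOXA2. The difference of G6pc was 4.96, 5.07 and 5.21 in those conditions and that of Egr1 -3.24, -3.40 and -3.03. Cxcl1, which did not pass with shlacZ and DMSO, differed by -1.21, -3.03 and -2.02, with a change of the response of -1.38 ± 0.98 (SE) with shFOXA2.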

How the data were processed

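The deposited table gives log2 expression for 41345 probe sets and 24 arrays; per the labels, the authors used GeneSpring, and how signals were corrected and normalized was not given in the sources used here. The deposited log2 values were used as they stood, with no missing value and no column left out. Of the probe sets, 23521 have 1 gene symbol in the platform annotation, 1814 have several and 16010 have none. Those with 1 symbol were named through the RefSeq table, where 23328 were found, and 1082 genes with several probe sets were given by the brightest over all arrays, which left 22180 genes.

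All 24 arrays were fitted in limma 3.58.1 (R 4.3.3) with a mean for each of the 8 groups and the experiment number as a fixed term (14 residual degrees of freedom), with moderated variances and Benjamini-Hochberg adjustment over 22180 genes. The threshold was 0.05, and SE is that of the fit. Differences are glucagon minus insulin. The experiment term pairs arrays of 1 pool of hepatocytes, which the series text states. As a check, deviations from the group means correlated between same-numbered arrays at 0.374 to 0.698 over 84 pairs, at 0.407, 0.447 and 0.463 for the pairs compared here, and all 24 arrays correlated best with an array of their own experiment. No pair of arrays shared more than 14 identical values.

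Named genes are the 20 largest rises and 20 largest falls with 1 sign in all 3 experiments, Pck1, G6pc, Nr4a3 and Egr1, and in each of 39 gene lists up to 6 members past the threshold and up to 3 that did not pass in list order. Of 646 listed genes, 598 were tested and the rest were not analysed here. Members and lists were chosen with earlier results of these data known, and so was the use of the experiment term, whose effect on the count of called genes was known beforehand. A few genes outside the rule are named because their list had few calls or, for Icam1 and Tnfaip3, after their values were seen. The fit was tested on simulated data. Promoters are those of RefSeq on GRCm38.p6, and 16990 genes matched. Alternatives left out the experiment term, other groups, single arrays or whole experiments, or changed scaling, dim-gene filter, probe set rule or moderation. With 3 arrays in a group, their number limits the precision.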

Additional observations from a re-analysis of the deposited data

How the results depend on the processing

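The count of called genes was 2481 with the experiment as a replicate block and 1039 without it, and 1500 in a fit of the 6 compared arrays alone with the block kept. Leaving out single arrays or whole experiments gave 958 to 2073 called genes: 1161 without experiment 1, 958 without experiment 2 and 1640 without the glucagon array of experiment 2 moved it by more than 1.5 times. The other alternatives (only shlacZ arrays, scaling, dim-gene filter, probe set mean, moderation with trend) gave 2376 to 2681. Genes past 1.5-fold numbered 917, with 618 without the block and 692 to 1077 on leaving out arrays or experiments. The tests of a different response gave 0 genes, with 0 to 1 on leaving out arrays or experiments: Rdh16f2 for GW4064 without experiment 3, and Vmn1r89 for the hairpin without the glucagon array of experiment 2. The 6 arrays alone hold no such contrast, nor the 12 shlacZ arrays that of the hairpin. Of 170 called genes among those named, 108 passed without the block, 136 in the fit of the 6 compared arrays alone, 114 without experiment 1, 103 without experiment 2 and 153 without experiment 3. None reversed under any alternative run. The causes were not tested. Signals near the floor limit the precision: both groups lay below 5 for 466 called genes.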

Other observations

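Of 16 host genes of small nucleolar RNAs, grouped by symbol after their values were seen, 6 fell, none rose and 10 did not pass, with a median of -0.22, and 4 fell without the experiment term. Snhg1 averaged 8.68 under insulin and 7.2 under glucagon, a difference of -1.48, and Zfas1 9.40 and 8.07, a difference of -1.33. Snhg12 differed by -1.16, from 6.86 to 5.71, and Snhg5 by -1.16, from 7.53 to 6.37. Snhg3, Snhg4 and Snhg17 differed by 0.04, -0.05 and 0.03 and did not pass, nor did Snhg14 and Snhg9, at 0.48 and 0.12. These transcripts carry small nucleolar RNAs in their introns, and several are known to be degraded when translated.

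Genes of methionine and betaine metabolism, also grouped after their values were seen, held 5 rises and no fall in 15 genes, with 4 rises without the experiment term. Mat1a, which makes S-adenosylmethionine in liver, averaged 6.41 under insulin and 9.0 under glucagon, a difference of 2.59. Bhmt2, a homocysteine methyltransferase, went from 4.47 to 7.31, and Dmgdh, the dimethylglycine dehydrogenase, from 6.19 to 8.21. Cbs and Gnmt differed by 1.23 and 0.55, and the call of Gnmt was lost without the experiment term. Bhmt lay at the floor in both groups. These groups were chosen for their values and carry no test of their own.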
